A study of Mus musculus with 18 samples.

Results

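The genes described here serve the endoplasmic reticulum, the compartment in which secreted and membrane proteins are folded, checked and passed on to the Golgi. The set held 34 listed genes: stress sensors and transcription factors, chaperones, isomerases, degradation factors, and translocation and export factors. All 34 had a probe set annotated to 1 gene symbol, out of 19938 such genes on the array, and the probe set with the highest mean stood for each gene. No filter on low values was applied.

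Every sample was wild type mouse embryonic fibroblasts, connective tissue cells grown from C57BL/6 embryos of embryonic day 13 after head and liver were taken off. All cultures had been exposed for 2 h to 100 nM dexamethasone, a man-made glucocorticoid hormone that brings the circadian clocks of a culture into step. RNA was taken 22, 26, 30, 34, 40 and 46 h later, with 3 arrays at each time and 18 in all. Untreated cells were not analysed here, so every comparison lies between times after the same treatment. The labels call the 3 samples of a time biological replicates and say that the fibroblasts came from 2 mice, with no detail of the cultures, so p-values cover the scatter among these samples only, which may be technical.

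When unfolded proteins build up in the compartment, 3 membrane sensors act. ERN1 (also called IRE1) splices the Xbp1 messenger RNA into a form that encodes an active transcription factor, ATF6 is cut to release another, and EIF2AK3 (also called PERK) slows translation and favours the factor ATF4. Their targets are the chaperones, disulfide isomerases, degradation factors and export factors described here. Fibroblasts secrete collagen and other matrix proteins in large amounts, so the same machinery serves them in the absence of stress.

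Median array intensity lay between 196 and 210. Of the variance within times over all genes, 33.8% lay along 1 component, and at each time 1 array stood on the opposite side from the other 2. That array was replicate 2 at 22, 26, 40 and 46 h, replicate 3 at 30 h and replicate 1 at 34 h, and replicate 2 of 22, 40 and 46 h had the 3 largest scores in size. Results are therefore also given without these 3 arrays. Fibroblast markers were bright on average: all 11 listed had a probe set, and their mean level lay between 12.25 and 12.26 on the arrays at 46 h, against 12.02 to 12.10 at 22 h. The means of single markers over all arrays ranged from 7.31 to 13.47. The lowest lay within the levels given below for lists of other cell types.

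The set was higher at 46 h than at 22 h in part of its members, by small amounts. Of the 34 genes, 13 rose and 0 fell (limma, adjusted p under 0.05), while 11.5% of all genes tested rose and 9.73% fell, 21.2% in all. The rises lay between 0.20 and 0.38 log2, or up to 1.30-fold. They comprised Sec24d of the export vesicle coat, the stress factors Xbp1, Ddit3 and Eif2ak3, 7 chaperones and their partners led by Hspa5, the isomerase Pdia4 and the degradation adaptor Sel1l. The median difference of the 34 genes was 0.14 log2, against 0.03 for all genes. With the array values as deposited, not normalized further, these medians were 0.14 and 0.06. In 30 of the 34 the estimate was above 0, which held for 58.2% of all genes. The 3 arrays of 46 h lay above all 3 of 22 h for 18 members, and below them for 0, against 21.3% and 15.3% of all genes. These shares are over genes of every level, while 33 of the 34 members lay above the median level of all genes. Shares among genes of like level were not taken. The set was also chosen with earlier results of these data known, so its shares beside all genes are not an independent test. In RNA from whole cultures, a change in the number of cells of a type and a change in RNA per cell cannot be told apart.

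**Figure D1:**
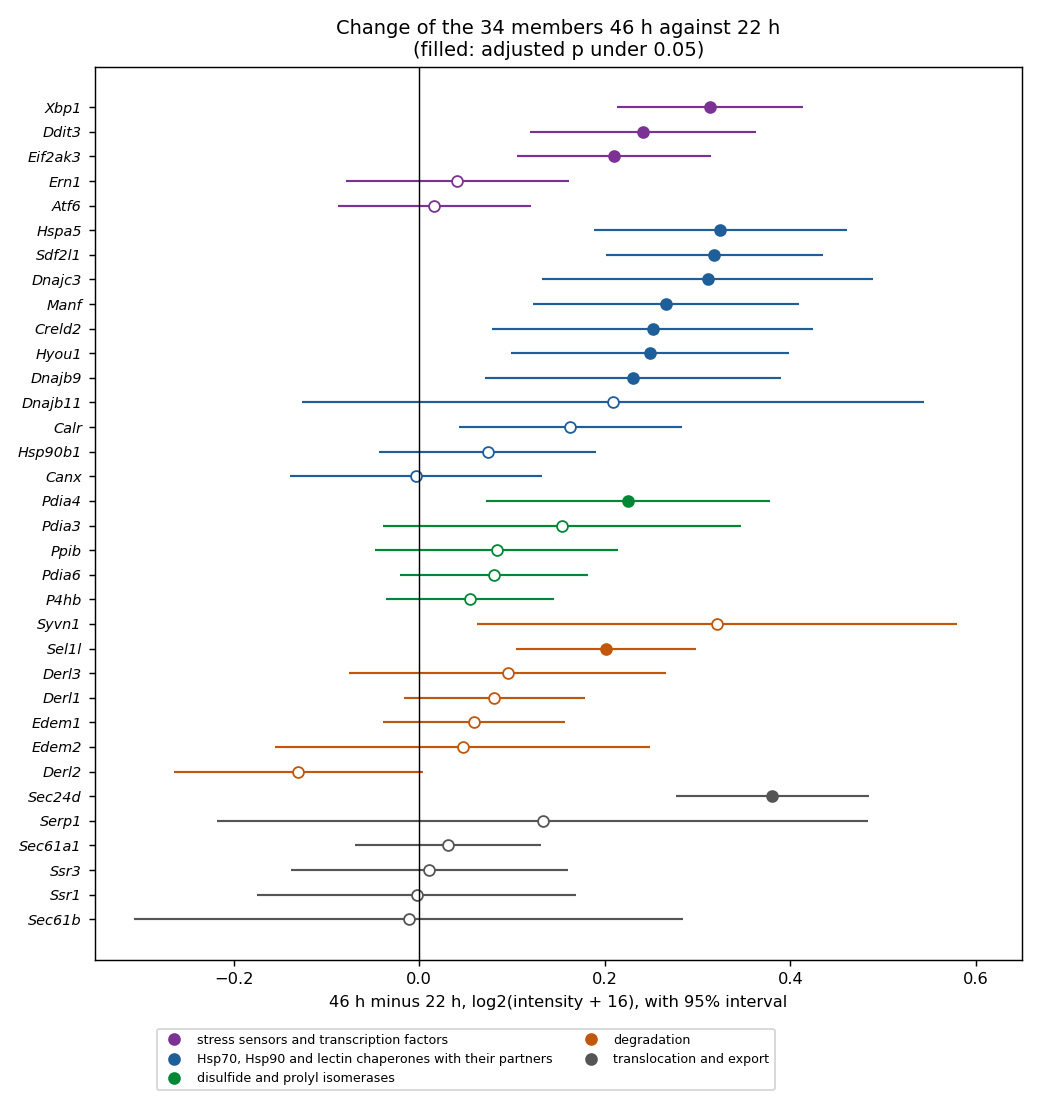
Difference of each of the 34 genes, 46 h minus 22 h, on the log2(intensity + 16) scale, with its 95% interval, coloured by role. The 13 filled points passed the test, all to the right of 0, from 0.20 for Sel1l to 0.38 for Sec24d.

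Of the 13 calls, 8 held under each of the 30 other settings tried, which comprised other processing choices and each array left out in turn: Sec24d, Hspa5, Sdf2l1, Xbp1, Manf, Ddit3, Eif2ak3 and Sel1l. The other 5 did not. Leaving out replicate 1 or replicate 3 of 46 h left 9 calls, and leaving out the 3 arrays named above left 12, of which 11 were among the 13.

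Markers of the cells themselves moved beside these genes. Of the 11 fibroblast markers, 6 rose at 46 h against 22 h (Col1a1, Col1a2, Col3a1, Pdgfra, Pdgfrb and Sparc) and S100a4 fell, with a median of 0.32 log2. Of other cell types, 1 marker rose and 1 fell among 5 of bone and cartilage (Col2a1 and Sox9), 1 of 6 rose for endothelium (Cldn5) and 1 of 5 for skeletal muscle (Myod1). Cd14 fell among 8 macrophage markers, Krt8 and Krt19 among 7 of epithelium, and 0 of 5 neural and 0 of 4 adipocyte markers passed. Of all genes, 11.5% rose and 9.73% fell between these times. Counts in lists this short do not set the other cell types apart from those shares. The mean level of the muscle list lay between 7.61 and 7.64 at 46 h, against 7.52 to 7.57 at 22 h, and the epithelial list between 7.16 and 7.23, against 7.34 to 7.40. The lists of bone and cartilage (7.99 to 8.14 at 46 h, against 7.97 to 7.99 at 22 h), endothelium (6.86 to 6.95, against 6.77 to 6.90), macrophages (7.07 to 7.13, against 7.04 to 7.15), neural cells (7.50 to 7.61, against 7.49 to 7.57) and adipocytes (7.07 to 7.12, against 6.96 to 7.09) overlapped between 46 h and 22 h. No marker is listed at 0 on arrays, where background gives every probe set a value. The part of the fibroblast markers in the rise of the 34 genes was not tested.

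Among the 5 stress sensors and transcription factors, 3 rose at 46 h against 22 h, with a median of 0.21 log2 for the group. Xbp1, the transcription factor of the ERN1 branch (probe set 10374035), read 11.49, 11.61 and 11.54 log2 on the arrays of 46 h, against 11.21, 11.28 and 11.22 at 22 h. No array of 46 h overlapped those of 22 h. The difference was 0.31 ± 0.05 log2 (SE, n = 3 each), 1.24-fold, with an adjusted p of 0.000127. The spliced and unspliced forms of Xbp1 are not told apart by this value. Its means were 11.24, 11.31 and 11.29 at 22, 26 and 30 h, then 11.56, 11.47 and 11.55 at 34, 40 and 46 h.

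Ddit3, which encodes the stress factor CHOP downstream of ATF4, read 9.35, 9.26 and 9.31 at 46 h, against 9.05, 9.05 and 9.10 at 22 h, again without overlap. It rose by 0.24 ± 0.06 log2 (adjusted p = 0.00629). Eif2ak3, the sensor PERK, read 9.65, 9.60 and 9.65 at 46 h, against 9.39, 9.43 and 9.45 at 22 h, and rose by 0.21 ± 0.05 (adjusted p = 0.00565). The sensors Ern1 and Atf6 did not pass. Their differences were 0.04 log2 (95% interval -0.08 to 0.16) for Ern1 and 0.02 (-0.09 to 0.12) for Atf6, so a rise of the size of Eif2ak3 lay outside both intervals. Whether Eif2ak3 differed from either was not tested.

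The 11 chaperones and their partners, the role with the most genes, held the most calls. At 46 h, 7 of them were higher than at 22 h, against 11.5% of all genes, and the median of the group was 0.25 log2. Hspa5 encodes BiP, the Hsp70 chaperone of the compartment, which also holds the 3 sensors inactive. It read 12.62, 12.41 and 12.55 at 46 h, against 12.31, 12.10 and 12.20 at 22 h, so that all arrays of 46 h were above all of 22 h. The rise was 0.32 ± 0.06 log2, 1.25-fold (95% interval 0.19 to 0.46, adjusted p = 0.00152). Sdf2l1, which works with BiP and its J-protein partner, read 9.94, 9.91 and 9.93 at 46 h, against 9.62, 9.66 and 9.55 at 22 h. The 3 arrays of 46 h spanned the narrower range, and the rise was 0.32 ± 0.06 (adjusted p = 0.000499).

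A promoter element is known from some of these chaperones, so the promoters of the set were searched. The endoplasmic reticulum stress element (ERSE) is CCAAT, any 9 bases, then CCACG. The factor NF-Y binds the CCAAT part and ATF6 or spliced XBP1 the CCACG part. Windows of 250 bases before to 50 bases after the start were available from RefSeq (GRCm38.p6) for 29 of the 34 genes, and both strands were read. In 26 of these genes a window stood at the gene's outermost start, and in Sec24d, Edem1 and Eif2ak3 at a later one. Atf6, Derl1, Hyou1, Manf and Sec61a1 had no window and were not searched, though Hyou1 and Manf rose at 46 h. The element stood in 9 of the 29 genes and in 0.119% of all 32851 windows. The set was listed from known targets of this stress response among others, so its higher share is not an independent result. Shown first are the promoter of Hspa5 and the stretches of Dnajc3 and Creld2, the 3 searched genes that hold the element and rose at 46 h. Those of Hsp90b1, Calr and Canx, which hold it and did not pass the test, follow. Sequences are read 5′ to 3′ on the strand of the gene, and capitals mark the element or its reverse complement (CGTGG, 9 bases, ATTGG). They lie at chr2:34771840-34772089 (+) for Hspa5, chr14:118937806-118937865 (+) for Dnajc3, chr15:88819499-88819558 (+) for Creld2, chr10:86705618-86705677 (-) for Hsp90b1, chr8:84847055-84847114 (-) for Calr and chr11:50325780-50325839 (-) for Canx.
Hspa5: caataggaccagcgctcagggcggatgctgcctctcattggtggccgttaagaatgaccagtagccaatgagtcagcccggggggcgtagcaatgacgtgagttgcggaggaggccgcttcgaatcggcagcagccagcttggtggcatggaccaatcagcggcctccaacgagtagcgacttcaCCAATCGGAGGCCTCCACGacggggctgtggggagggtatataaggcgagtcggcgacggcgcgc
Dnajc3: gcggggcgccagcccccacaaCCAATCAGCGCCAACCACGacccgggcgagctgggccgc
Creld2: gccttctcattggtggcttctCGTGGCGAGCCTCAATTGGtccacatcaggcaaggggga
Hsp90b1: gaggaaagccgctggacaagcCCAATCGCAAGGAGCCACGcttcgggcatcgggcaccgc
Calr: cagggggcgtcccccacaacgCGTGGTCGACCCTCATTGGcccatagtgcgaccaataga
Canx: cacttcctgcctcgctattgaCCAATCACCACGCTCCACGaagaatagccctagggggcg

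The element began 65 bases before the start in Hspa5, 105 in Dnajc3, 126 in Creld2, 162 in Calr and 145 in Canx, and Hsp90b1 held 2 copies. The other genes with it were Pdia6, Syvn1 and Derl3. The 9 genes with the element had a median difference of 0.16 log2 at 46 h against 22 h, from -0.00 for Canx to 0.32 for Hspa5. The 20 genes with a window and no match had a median of 0.14, from -0.13 to 0.38, and 8 of them rose. The ranges of members with and without the element overlapped. A match describes the letters and is neither a bound site nor a cause, and a missing match says only that these letters are not in the window.

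The same windows were searched for 5 other patterns, on both strands, of which UPRE is given with Sec24d. The element without its last base (CCAAT, 9 bases, CCAC), which every match above also holds, stood in 12 members, adding Pdia3, Pdia4 and Derl2, and in 0.365% of windows. The compact form ERSE-II (ATTGG, any 1 base, CCACG) stood in Dnajb11 and in 0.0365% of windows. TGATGNAAT, the composite element read by ATF4 and its partners, was in 0 member windows and 0.965% of all. The clock's E-box CACGTG stood in Calr, Derl3, Dnajb9 and Ssr1, against 7.15% of windows.

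The other chaperones that rose were Dnajc3, Manf, Creld2, Hyou1 and Dnajb9. Manf, a small protein of the lumen that is also secreted, read 10.36, 10.42 and 10.33 at 46 h, against 10.05, 10.18 and 10.08 at 22 h, a rise of 0.27 ± 0.07 (adjusted p = 0.00962). Hyou1, a large relative of Hsp70, read 10.40, 10.49 and 10.37 at 46 h, against 10.12, 10.24 and 10.14 at 22 h, and rose by 0.25 ± 0.07 (adjusted p = 0.0186). For both genes replicate 2 was the highest array at each of these times. Dnajc3, a J-domain partner of BiP, had the reverse order, with replicate 2 lowest: it read 10.61, 10.39 and 10.58 at 46 h, against 10.33, 10.04 and 10.28 at 22 h. Its rise was 0.31 ± 0.08 (adjusted p = 0.014).

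Creld2, a stress-induced protein of the lumen, read 11.01, 10.79 and 10.98 at 46 h, against 10.76, 10.51 and 10.75 at 22 h (0.25 ± 0.08, adjusted p = 0.0367). Dnajb9, a J-domain partner of BiP that acts in degradation and restrains ERN1, read 10.54, 10.50 and 10.50 at 46 h, against 10.28, 10.20 and 10.37 at 22 h (0.23 ± 0.08, adjusted p = 0.0381). All arrays of 46 h were above those of 22 h for both. Leaving out a single array ended the calls of 4 of these 5 genes. For Creld2 it was replicate 2 of 22 h (adjusted p = 0.15) or replicate 1 or 3 of 46 h (0.131 and 0.117). For Dnajc3 it was the same 3 arrays (0.0639, 0.0613 and 0.0563). For Hyou1 it was replicate 1 or 3 of 22 h (0.0761 and 0.0659) or replicate 2 of 46 h (0.0861). For Dnajb9 it was replicate 1 or 2 of 22 h (0.0955 and 0.112) or any array of 46 h (0.0952, 0.0827 and 0.0779). The values as deposited ended the calls of Creld2 (0.0876) and Dnajb9 (0.0714), and the replicate block that of Creld2 (0.0505). Fitting only the arrays of 46 h and 22 h ended that of Creld2 (0.0856). Without the 3 arrays named above, Dnajb9 did not pass (0.158).

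Of the 4 chaperones that did not pass, Calr came nearest to passing. Calr, the lumenal lectin chaperone calreticulin, read 13.03, 12.89 and 13.00 at 46 h, against 12.87, 12.73 and 12.84 at 22 h, with all arrays of 46 h above those of 22 h (0.16 log2, 95% interval 0.04 to 0.28, adjusted p = 0.0514). It passed under 7 of the 30 other settings: without replicate 2 of 46 h (adjusted p = 0.0309), without replicate 2 of 26 h (0.0449), with a larger constant before the log (0.0341), with either filter on dim genes (0.0343 and 0.026), with array weights (0.00269) and with the trended variance (0.0211). Dnajb11, a J-domain partner of BiP, read 10.12, 9.69 and 10.17 at 46 h, against 10.04, 9.45 and 9.86 at 22 h, and the groups overlapped (0.21, -0.13 to 0.54). Hsp90b1, the Hsp90 chaperone GRP94, differed by 0.07 (-0.04 to 0.19). Canx, the membrane lectin chaperone calnexin, differed by -0.00 (-0.14 to 0.13), which leaves out a rise of the size of Hspa5.

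**Figure D2:**
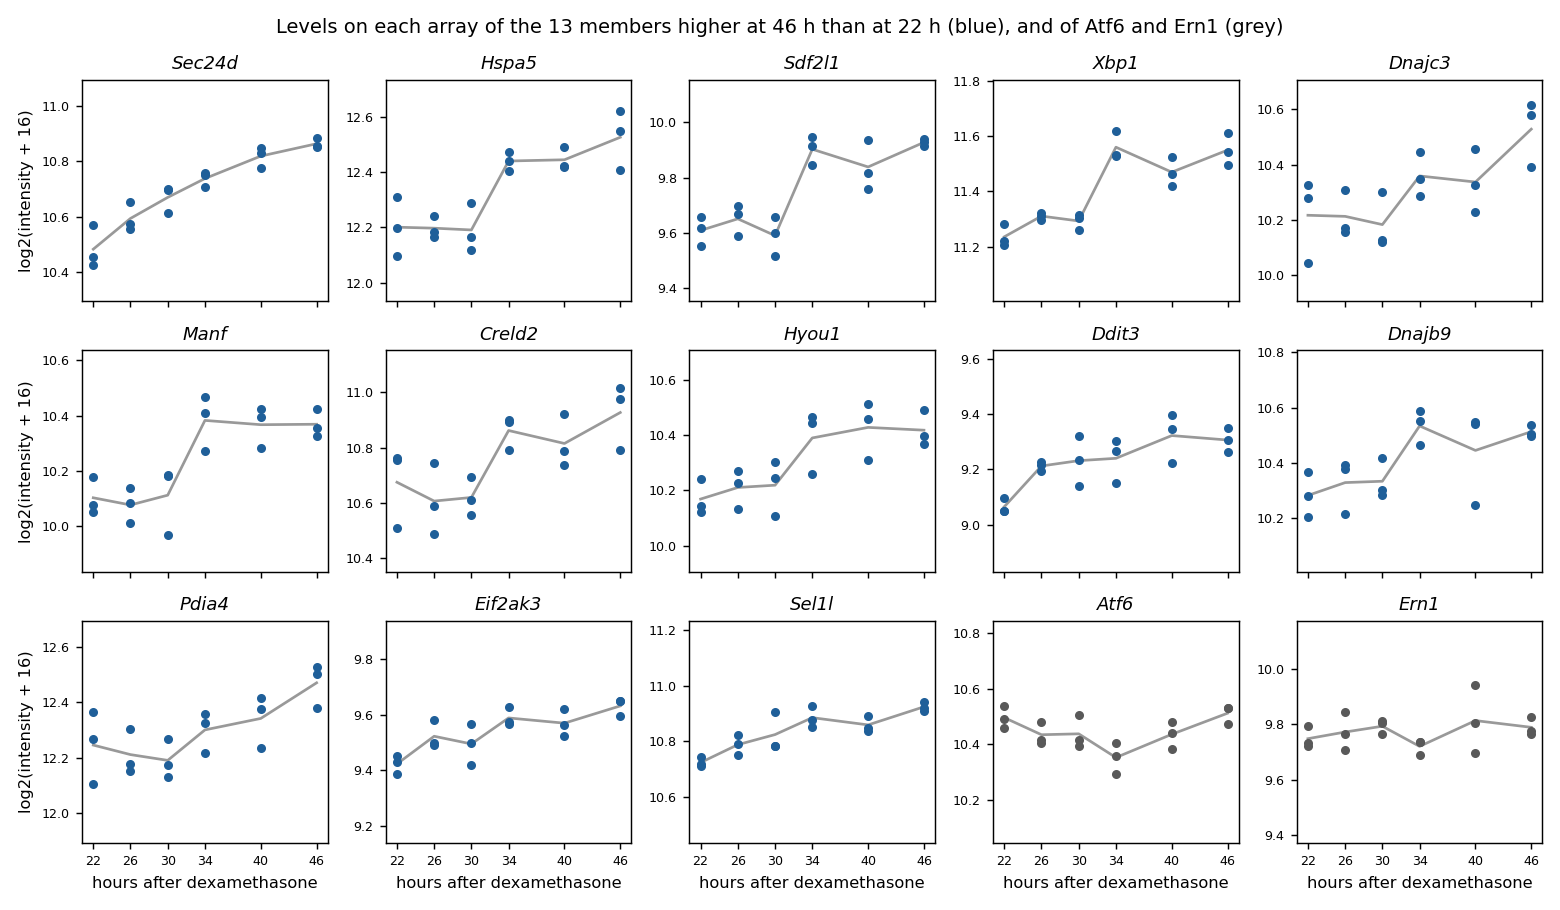
Level on each array, log2(intensity + 16), against hours after dexamethasone, of the 13 genes that rose at 46 h (blue points) and of Atf6 and Ern1 (grey points), with a line through the time means. Xbp1, Hspa5 and Sdf2l1 lie higher from 34 h on than at 22 to 30 h. The mean of Sec24d lies higher at each time than at the one before.

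Of the 5 disulfide and prolyl isomerases, 1 rose, against 11.5% of all genes, which does not set this role apart. Pdia4, a disulfide isomerase (probe set 10544525), read 12.50, 12.38 and 12.53 at 46 h, against 12.36, 12.10 and 12.27 at 22 h. All arrays of 46 h were above those of 22 h, and the rise was 0.22 ± 0.07 log2, 1.17-fold (adjusted p = 0.0353). A second probe set of the gene gave 0.28 ± 0.09 (adjusted p = 0.0263, all probe sets tested). The call for Pdia4 was lost without replicate 2 or 3 of 22 h (adjusted p = 0.142 and 0.072), without replicate 1 or 3 of 46 h (0.0963 and 0.125), without the 3 arrays named above (0.0794) and with only the arrays of 46 h and 22 h fitted (0.0823).

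The remaining isomerases did not pass. Pdia3, which works on glycoproteins with calnexin and calreticulin, differed by 0.15 log2 (-0.04 to 0.35), the prolyl isomerase Ppib by 0.08, and P4hb, a disulfide isomerase that is also a subunit of prolyl 4-hydroxylase, by 0.05 (-0.04 to 0.15). Pdia6, a disulfide isomerase that binds BiP, differed by 0.08 (-0.02 to 0.18) between 46 h and 22 h but passed the test over all times (adjusted p = 0.0447), with its lowest mean, 11.09, at 26 h and its highest, 11.27, at 40 h.

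Among the 7 degradation genes, 1 rose, against 11.5% of all genes, which does not set this role apart. The median was 0.08 log2. Sel1l, the adaptor of the ubiquitin ligase that removes misfolded proteins, read 10.94, 10.91 and 10.92 at 46 h, against 10.72, 10.71 and 10.74 at 22 h. Replicates lay close together at both times, and the rise was 0.20 ± 0.05, 1.15-fold (adjusted p = 0.00458). Syvn1, the ligase itself (HRD1), read 10.44, 10.66 and 10.42 at 46 h, against 10.02, 10.47 and 10.06 at 22 h. Its difference was as large as that of Hspa5, 0.32 ± 0.12 (0.06 to 0.58), but replicate 2 of 22 h reached the level of 46 h, and it did not pass (adjusted p = 0.0731). Without that array it passed, at 0.46 log2 (adjusted p = 0.00822).

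The derlins, membrane proteins through which substrates leave the compartment, showed values on both sides of 0. Derl3 differed by 0.10 and Derl1 by 0.08 log2, and Derl2 by -0.13 (-0.26 to 0.00), the lowest of the set. Without replicate 2 of 22 h, Derl2 passed as lower (-0.19, adjusted p = 0.0486). Edem1 and Edem2, which trim mannose from misfolded glycoproteins, differed by 0.06 and 0.05.

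Of the 6 translocation and export genes, Sec24d rose and the other 5 did not pass, with a median of 0.02 log2 for the 6. A single call does not set this role apart from the 11.5% of all genes that rose. Sec24d is a cargo adaptor of the COPII coat, which buds vesicles towards the Golgi, and in zebrafish it is needed for the export of collagen. It read 10.85, 10.85 and 10.88 at 46 h, against 10.43, 10.57 and 10.45 at 22 h. The rise, 0.38 ± 0.05 log2 or 1.30-fold (0.28 to 0.48, adjusted p = 2.54e-05), was the largest of the set. Its means were 10.48, 10.59, 10.67, 10.74, 10.82 and 10.86 at 22, 26, 30, 34, 40 and 46 h, each above the one before, though the single steps were not tested. The window given for it held TGACGTGG, the letters bound by spliced XBP1 and ATF6 (UPRE), 26 bases before the start of that window's transcript. This start lies 2695 bases downstream of the outermost start of the gene in RefSeq, whose own promoter was not searched. No other member window held it, against 0.676% of all windows. The stretch lies at chr3:123267436-123267495 (+), with these letters in capitals.
Sec24d: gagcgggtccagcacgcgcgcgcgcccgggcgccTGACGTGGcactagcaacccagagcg

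The genes of the translocation channel differed from 22 h by little. Sec61a1 and Sec61b, subunits of the channel, differed by 0.03 and -0.01 log2, and Ssr1 and Ssr3, subunits of the associated TRAP complex, by -0.00 and 0.01. The interval of Sec61b was wide (-0.31 to 0.28), and its 3 probe sets gave -0.01, -0.08 and -0.05. Serp1, a small protein beside the channel, read 12.01, 11.54 and 11.98 at 46 h, against 11.97, 11.41 and 11.75 at 22 h, with replicate 2 lowest at both times (0.13, -0.22 to 0.48).

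At 34 h, 8 of the 34 genes were higher than at 22 h and 0 lower, while 5.34% of all genes rose and 4.1% fell, 9.44% in all. The 8 were Xbp1, Eif2ak3, Hspa5, Sdf2l1, Manf, Dnajb9, Sel1l and Sec24d, each also higher at 46 h; both comparisons use the same 22 h arrays. Xbp1 was higher by 0.32 log2 (adjusted p = 0.000339), Sdf2l1 by 0.29 (0.0027), Manf by 0.28 (0.0149), Sec24d by 0.26 (0.00307) and Hspa5 by 0.24 (0.0267). The median difference of all 34 genes was 0.05, against 0.04 for all genes, and 0.04 against 0.02 with the array values as deposited. The count depended on single arrays and settings: it was 4 without replicate 1 of 22 h, 3 without replicate 3 of 22 h or replicate 2 or 3 of 34 h, and 2 when only the 6 arrays compared were fitted. Xbp1, Sdf2l1 and Sec24d passed with each single array left out. The highest adjusted p of the others was 0.102 for Hspa5 and 0.0859 for Manf, both without replicate 3 of 34 h, 0.183 for Eif2ak3 and 0.124 for Sel1l, both without replicate 1 of 22 h, and 0.147 for Dnajb9 without replicate 2 of 34 h.

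Some of these genes also lay apart between 34 h and 30 h, which was not tested. All arrays of 34 h were above all of 30 h for 8 members, against 9.4% of all genes. Xbp1 read 11.53, 11.53 and 11.62 at 34 h, against 11.26, 11.30 and 11.31 at 30 h. Hspa5 read 12.44, 12.41 and 12.47 at 34 h, against 12.12, 12.16 and 12.29 at 30 h, and Sdf2l1 read 9.85, 9.91 and 9.95, against 9.52, 9.60 and 9.66. The difference of the means was 0.27 for Xbp1, 0.25 for Hspa5 and 0.31 for Sdf2l1. The others were Sec24d, Manf, Creld2, Dnajb9 and Edem1. Arrays of 34 h were all below those of 30 h for 1 member, against 7.16% of all genes.

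Between 46 h and 34 h, 0 of the 34 genes passed (limma), and 5 had an unadjusted p under 0.05. Of all genes, 3.57% passed, 1.06% higher and 2.51% lower. The median difference of the members was 0.06 log2, against -0.01 for all genes. With the array values as deposited these medians were 0.05 and 0.04, so the gap depended on the normalization. All arrays of 46 h were above all of 34 h for 8 members, against 9.82% of all genes, and below them for 1, against 12.9%. The smallest adjusted p belonged to Atf6, which had a mean of 10.51 at 46 h and 10.35 at 34 h, a difference of 0.16 log2 (0.06 to 0.26, adjusted p = 0.0903). At 34 h Atf6 was 0.14 lower than at 22 h, which did not pass either (adjusted p = 0.0762). This fall passed in limma with either filter on dim genes (adjusted p = 0.0486 and 0.0323) and with array weights (0.00953).

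**Figure D3:**
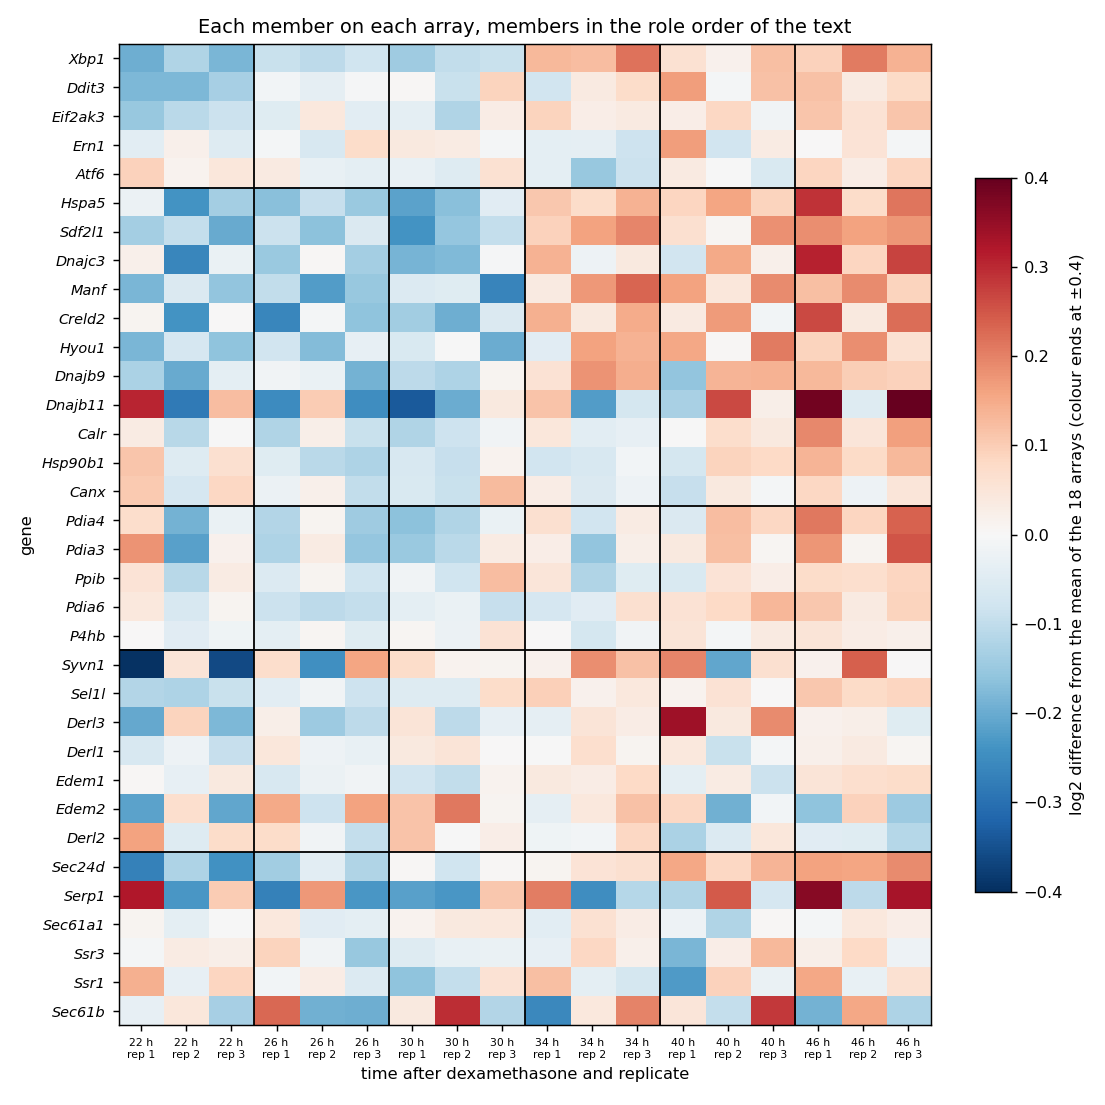
Each of the 34 genes on each of the 18 arrays, as the log2 difference from its mean over all arrays, with arrays ordered by time and replicate and genes by role. Xbp1, Hspa5, Sdf2l1 and Manf turn from lower to higher at 34 h, while Dnajb11, Serp1 and Syvn1 vary mainly between replicates of 1 time.

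Over the 6 times, 12 of the 34 genes changed (F test, adjusted p under 0.05), against 19.8% of all genes: 3 sensors and factors, 6 chaperones, and 1 gene each of the isomerases, the degradation genes and the export genes. The count was 6 without replicate 3 of 22 h or replicate 1 or 3 of 46 h, and 7 without replicate 3 of 26 h. The highest mean lay at 46 h for 18 members, against 20.5% of all genes, and the lowest at 22 h for 11, against 30.9%.

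A cycle of 24 h was not called for any member. A 24 h cosine takes the same fitted value at 22 h and 46 h, so it cannot follow a rise between them. Of the 34 genes, 0 passed the fit of a cosine in limma, against 0.828% of all genes, with 10 at an unadjusted p under 0.05 and a smallest adjusted p of 0.0919. At so low a share over all genes, 0 of 34 does not set the members apart. The largest amplitude, the distance from the mean level to the fitted peak, was 0.17 log2. The median amplitude was 0.08 for the members and 0.06 for all genes. With a period of 26 h, 5 members passed, and the share of all genes was not taken. Such a curve need not be equal at 22 h and 46 h, so it can follow part of a rise between them. With a linear term in time beside the 24 h cosine, 0 members passed and their median amplitude was 0.05. The times cover 1 cycle, so a repeat could not be seen in any gene.

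The array component described above ran through much of the set. For 18 of the 34 genes over 50% of the variance within times lay along it, which held for 25.1% of all genes, with 11 on one side and 7 on the other. On one side were Dnajc3 (96.3%), Dnajb11 (93.3%), Serp1 (91.1%), Calr (84.7%), Pdia4 (84.1%) and Hspa5 (69.0%). On the other were Edem2 (91.3%), Syvn1 (85.6%), Hyou1 (76.2%) and Manf (72.9%). Genes that rose stood on both sides, and others that rose had little of it, among them Ddit3 (3.42%), Sdf2l1 (11.8%) and Sec24d (11.8%). The component was taken within times and sums to 0 in each. Its part in the differences between times was not tested beyond leaving out arrays.

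**Figure D4:**
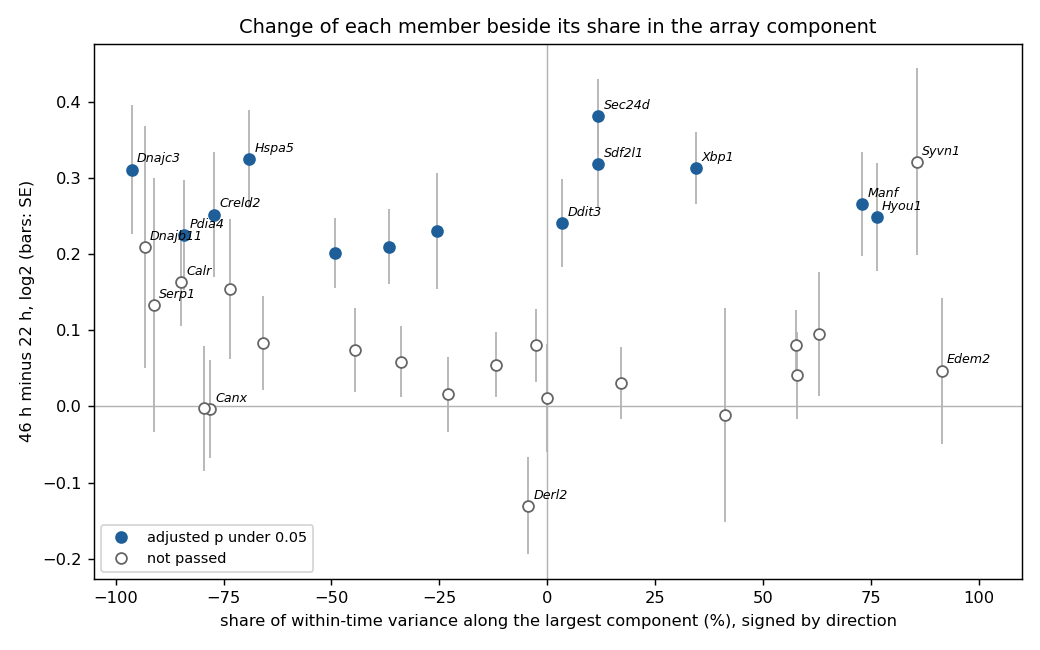
Difference of each member, 46 h minus 22 h in log2 with its SE, against the share of its within-time variance along the largest component, signed by direction. Genes that passed lie from Dnajc3 on the left (96.3%) to Hyou1 on the right (76.2%), and Sec24d, with 11.8%, has the largest difference.

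Related genes of the same pathway were counted from 7 further lists, also chosen with earlier results of these data known. Their counts are to be read against the 11.5% of all genes that rose and the 9.73% that fell at 46 h against 22 h. Of 15 other stress sensors and signalling genes measured, 4 rose and 2 fell at 46 h against 22 h, with a median of -0.04 log2. The rises included Creb3l1 (0.61 ± 0.08, adjusted p = 3.03e-05), Creb3l2 (0.29) and Creb3 (0.23), a family of membrane-held transcription factors related to ATF6, of which Creb3l1 drives collagen synthesis in bone. Traf2, the adaptor that binds active ERN1, fell by 0.23. The means of Creb3l1 were 10.38, 10.59, 10.69, 10.90, 10.93 and 10.99 at 22, 26, 30, 34, 40 and 46 h, each above the one before. The single steps were not tested, and the SD at 40 h was 0.15.

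Of 17 other targets of PERK and ATF4 measured, 0 rose and 5 fell, with a median of -0.04 log2, while Ddit3 rose. Psat1, an enzyme of serine synthesis, had a mean of 10.62 ± 0.07 at 46 h and 11.23 ± 0.08 at 22 h (SD, n = 3 each), and fell by 0.61 log2 (adjusted p = 4.74e-06). The cystine transporter Slc7a11 fell by 0.56, the asparagine synthetase gene Asns by 0.43 and the lipoprotein receptor gene Vldlr by 0.32. The other that fell was Phgdh, also of serine synthesis, named after its value was seen (-0.23 log2).

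Lumenal folding genes outside the set were mixed. Of 38 measured, 9 rose and 2 fell, with a median of 0.06 log2. The largest rises were in prolyl isomerases and a calcium-binding protein of the lumen: Fkbp7 (0.48), Fkbp14 (0.43), Rcn3 (0.43) and Ppic (0.33). Fkbp7 passed narrowly (0.48 ± 0.17, limma adjusted p = 0.0483) and did not pass the F test over the times (adjusted p = 0.193). Procollagen modification enzymes gave 5 rises and 1 fall in 13 genes, with a median of 0.02. The lysyl hydroxylase gene Plod1 rose by 0.60 (adjusted p = 1.99e-05) and P3h1, a prolyl 3-hydroxylase gene, by 0.52 (adjusted p = 1.64e-06), both more than any of the 34 genes. P3h4 rose by 0.28 and P3h3 by 0.26.

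Of 36 other transport vesicle genes, 11 rose and 0 fell (median 0.10 log2). They included Kdelr3, a receptor that returns lumenal chaperones from the Golgi (0.34, adjusted p = 0.000184), the fusion proteins Sec22b (0.26) and Stx5a (0.25), and the COPII coat subunit Sec23a (0.25). Of 19 other degradation genes, 4 rose and 0 fell (median 0.02): the lectin Os9 (0.32), the ubiquitin ligase Rnf139 (0.27), the mannose-trimming Edem3 (0.26) and the ligase partner Herpud1 (0.23). Of 29 other translocation and glycosylation genes, 6 rose and 2 fell (median 0.04), among the rises the oligosaccharyltransferase subunit genes Dad1 (0.26) and Ostc (0.20), the TRAP subunit gene Ssr2 (0.24) and Tram2 (0.19).

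**Figure D5:**
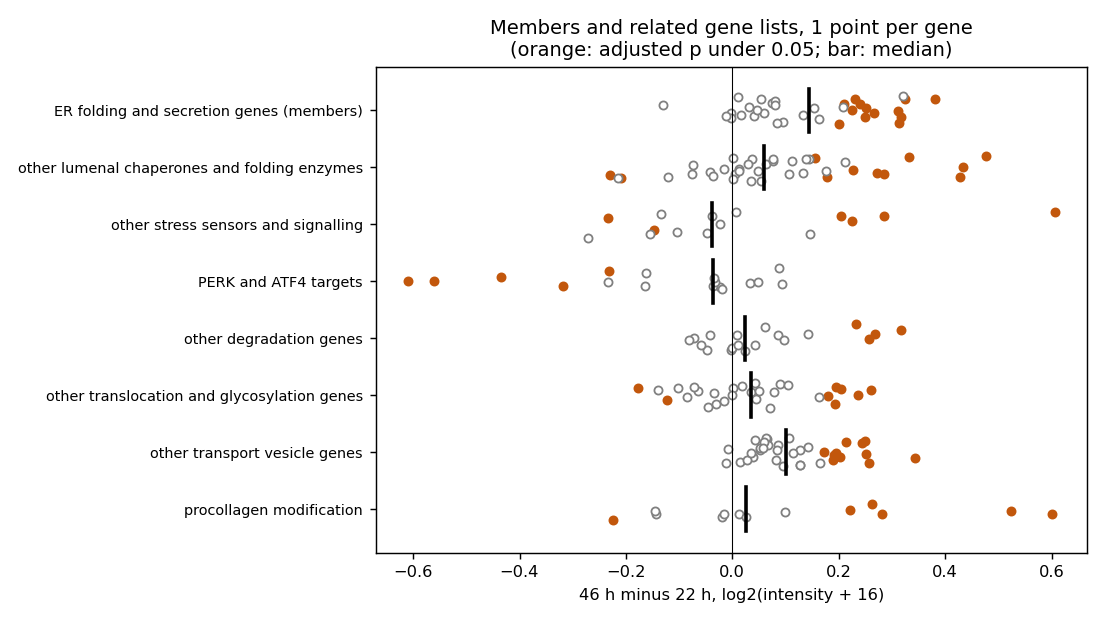
Difference of every measured gene, 46 h minus 22 h in log2(intensity + 16), for the 34 members and the 7 related lists, with a bar at each median and coloured points for genes with an adjusted p under 0.05. The medians lie between -0.04 for the other stress sensors and 0.14 for the members.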

How the data were processed

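RNA of 18 samples, 3 at each of 6 times, was put on Affymetrix expression arrays. The authors deposited intensities, not log values, for every probe set. The submitters' processing notes name PLIER 2.0 and Affymetrix Expression Console 1.1, with settings not given in the sources used.

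Of 35556 probe sets, 21789 had 1 gene symbol in the platform annotation, and the brightest on average stood for each of the 999 genes that had several, which left 19938 genes. Intensities were taken as log2(value + 16), which shrinks changes of dim genes. Quartiles of the arrays lay up to 0.154 log2 apart, and quantile normalization was applied. A limma fit (3.58.1, R 4.3.3, lmFit and eBayes) of the 6 time means used all 18 arrays, giving an F test over times and 3 contrasts. A cosine with a 24 h period was fitted separately. P-values were adjusted by Benjamini-Hochberg over all 19938 genes, with a threshold of 0.05, and intervals are at 95%. The fits were also run on simulated data without an array component, so that run does not cover the component described above.

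The members and all gene lists were chosen with earlier results of these data known. All members were named, and of each related list up to 4 genes that passed with the largest change. Of all list genes, 3 were matched through a synonym. Deviations of same-numbered samples from their time means correlated between -0.56 and 0.49, so the numbers were not taken to pair samples. Alternatives covered normalization, the constant, filters on dim genes, probe sets, a replicate block, array weights, variance models, periods, the arrays in the fit, and each array left out. Promoter letters came from RefSeq (GRCm38.p6). Figures were drawn with matplotlib 3.10.9. No column was left unused.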

Additional observations from a re-analysis of the deposited data

How the results depend on the processing

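No difference of a member changed sign under any alternative in a way that reversed a call. The count of 13 members higher or lower at 46 h against 22 h lay between 11 and 19 under the alternatives that kept every array, and between 9 and 14 with single arrays left out. Array weights gave 25 members over the 6 times, 3 at 46 h against 34 h and 1 with a 24 h cosine. At 34 h against 22 h they gave 16, of which 14 were higher and 2, Atf6 and Hsp90b1, lower. At 34 h against 22 h, 5 members passed with the values as deposited, 5 with the replicate block and 2 with only the arrays of the times compared. At 46 h against 34 h, 1 passed among genes above the median. A cosine with a period of 26 h, which can follow part of a rise between 22 h and 46 h, gave 5 members. With single arrays left out, the counts lay between 6 and 13 over the 6 times, between 3 and 10 at 34 h against 22 h, and at 0 for 46 h against 34 h and for the cosine. The replicate block gave 8 members over the 6 times and 12 at 46 h against 22 h. Leaving out replicate 2 at 22, 40 and 46 h together, chosen after seeing the data, gave 17 over the 6 times, 12 at 46 h and 10 at 34 h. The cause of these changes was not tested. Related lists moved too: transport vesicle genes gave between 8 and 18 rises, other lumenal folding genes between 6 and 14, and PERK and ATF4 targets between 4 and 7 falls and 0 rises. Other translocation and glycosylation genes gave between 2 and 9 rises and between 0 and 4 falls. Other stress sensors and signalling genes gave between 3 and 5 rises and between 1 and 6 falls. The 3 arrays per time limit the precision of every value.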
